A study of Mus musculus with 6 samples.

Results

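Disallowed genes are genes that most tissues express but that mature pancreatic beta cells keep silent, and 10 of them (Rest, Pdgfra, Aldh1a3, Acot7, Oat, Maf, Cxcl12, Igfbp4, Lmo4 and Cat) are described here in a mouse insulinoma line, out of 20416 genes measured. They were chosen by symbol, as all probe sets whose array annotation gives 1 symbol and that symbol is one of the 10. All 10 were found, with 105 of 212097 such probe sets, from 2 for Maf to 26 for Pdgfra, and no probe set shared between a member and another gene was found. The RNA came from MIN6-4N cells, which the labels call a pancreatic beta cell line, nucleofected with plasmid and kept in G418 at 750 µg/ml for 5 weeks, after which clones were picked and their Meg3 level was checked by RT-PCR. The vector group is 3 independent cultures of 1 clone carrying pcDNA3.1 without insert, and the Meg3 group is 3 independent cultures of 1 clone carrying the same plasmid with mouse Meg3, a long non-coding RNA. Both were grown in low glucose medium with 15% serum and G418 at 500 µg/ml. The Meg3 clone carries different numbers in different labels, and sorted cells are mentioned although no protocol describes a sort. Since a group is 1 clone, plasmid and clone cannot be told apart, and p-values measure only the spread between cultures of a clone.

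Beta cells release insulin in proportion to blood glucose, and repression of certain widely expressed genes is regarded as part of that specialised state. A lactate enzyme such as LDHA or the monocarboxylate carrier encoded by Slc16a1 would let fuels other than glucose trigger secretion or would divert pyruvate away from mitochondria. Other disallowed genes encode growth factor receptors, secreted signals or transcription factors of other lineages. In insulinoma lines and in stressed or dedifferentiating beta cells some of them are known to be switched on, Aldh1a3 being a widely used marker of that state.

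Promoter sequences of 7 of the 10 genes were found in RefSeq (build GRCm38.p6), as windows of 300 bases around a transcript start, mostly upstream of it. The 4 printed here belong to the brightest of the 7 on these arrays (Oat), the dimmest (Pdgfra), and the ones with the largest negative and positive clone differences outside the dimmest (Cat and Lmo4). Each is written from 5′ to 3′ on the strand of the gene. Capitals mark CCAAT and its reverse complement ATTGG, a common promoter element.
Oat, chr7:132576349-132576648, minus strand: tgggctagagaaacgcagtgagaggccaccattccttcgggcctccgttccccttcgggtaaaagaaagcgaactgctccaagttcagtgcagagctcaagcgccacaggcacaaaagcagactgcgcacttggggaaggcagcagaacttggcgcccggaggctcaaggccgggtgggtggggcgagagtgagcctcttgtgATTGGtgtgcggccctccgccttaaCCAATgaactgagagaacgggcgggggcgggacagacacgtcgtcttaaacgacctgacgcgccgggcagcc
Cat, chr2:103485104-103485403, minus strand: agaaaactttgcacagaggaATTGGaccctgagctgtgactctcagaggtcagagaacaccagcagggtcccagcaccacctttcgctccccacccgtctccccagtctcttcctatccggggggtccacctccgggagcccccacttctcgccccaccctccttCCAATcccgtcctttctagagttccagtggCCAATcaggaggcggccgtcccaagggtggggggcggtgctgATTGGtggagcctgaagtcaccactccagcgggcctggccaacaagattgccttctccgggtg
Lmo4, chr3:144205206-144205505, minus strand, the start farthest upstream of 3 listed: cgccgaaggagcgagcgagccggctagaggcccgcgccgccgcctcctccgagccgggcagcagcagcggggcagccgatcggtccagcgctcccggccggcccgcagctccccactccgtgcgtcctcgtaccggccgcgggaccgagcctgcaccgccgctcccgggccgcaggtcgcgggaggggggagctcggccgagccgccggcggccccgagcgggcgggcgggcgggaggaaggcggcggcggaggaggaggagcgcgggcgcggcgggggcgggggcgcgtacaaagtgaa
Pdgfra, chr5:75152001-75152300, plus strand: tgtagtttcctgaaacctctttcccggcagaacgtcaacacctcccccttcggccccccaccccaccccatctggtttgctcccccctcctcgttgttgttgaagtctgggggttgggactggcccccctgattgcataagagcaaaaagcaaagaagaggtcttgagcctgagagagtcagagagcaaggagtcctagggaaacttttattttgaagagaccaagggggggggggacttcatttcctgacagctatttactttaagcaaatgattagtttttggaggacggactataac
CCAAT was matched on either strand 4 times for Cat and 2 times for Oat, and it was not matched in the windows of Lmo4, Acot7, Pdgfra, Cxcl12 or Igfbp4. Of 32851 RefSeq promoter windows of this length, 37.4% hold it. The GC box GGGCGG, searched on both strands with overlapping matches counted, is in 35.7% of all windows. It was matched 5 times for Cxcl12, 4 for Lmo4, 2 each for Oat and Acot7, once for Cat, and not for Pdgfra or Igfbp4. The TATA motif TATAAA, present in 13.6% of all windows, was matched only for Igfbp4 among the 7 genes. CpG dinucleotides numbered 52 in the Lmo4 window shown, 27 for Igfbp4, 22 for Oat, 20 for Cxcl12, 11 for Cat, 6 for Acot7 and 5 for Pdgfra, against a median of 7 over all windows. GC-rich windows thus belonged to genes that were bright (Oat) and to genes that were dim (Igfbp4 and Cxcl12) on these arrays. These matches describe letters only and show no binding.

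The arrays report log2 values per probe set, and a gene is given as the mean of its probe sets. Means of a clone are written ± SD over its 3 cultures, and differences are log2 values of Meg3 minus vector with a moderated standard error. Meg3 itself stood at 5.84 ± 0.19 for vector and 7.56 ± 0.34 for Meg3. It was higher by 1.72 (SE 0.19) with a limma adjusted p of 0.00756, which goes the way the labels say. Array pairs correlated at 0.968 to 0.997 over genes. Vector replicate 2 and Meg3 replicate 1 stood apart. The spread of their probe sets about the remaining arrays' median had an SD of 0.85 and 0.63, where the 4 others had 0.42 to 0.48. The differences of Maf, Acot7, Cat and Lmo4 are given with and without both arrays, and those of genes from the lists are given with them only. The silent limit defined next was passed by 68.6% (vector) and 66.9% (Meg3) of all genes. Of 12 measured beta cell markers, 11 read above it in each clone. The brightest marker was Iapp, which encodes amylin, at 13.34 in the vector clone. The exception was Ucn3, a marker of mature beta cells, at 5.40 and 5.75 in the vector and Meg3 clones. Gcg, the glucagon gene of alpha cells, stood at 12.82 and 12.66.

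Whether a disallowed gene was on was judged against 1145 olfactory and vomeronasal receptor genes, most of which are silent outside the nose, taken as a silent set. Some such receptors are expressed elsewhere, and 2 genes of the set read above 8.75, so the set is not wholly silent. Their 95th percentile was a log2 value of 5.75 for vector and 5.83 for Meg3, and their 99th percentile was 6.77 and 6.88. Probes differ in affinity, and the silent set has only 1567 probe sets over its 1145 genes while the members have more per gene, so these limits are rough and levels of different genes can be ordered only approximately. By the 95th percentile 9 of 10 members were on in the vector clone, all but Pdgfra, and 8 in the Meg3 clone, all but Pdgfra and Rest. Single probe sets ordered these 2 genes otherwise. Against the 95th percentile of the silent set's probe sets, 11 of 26 for Pdgfra were above for vector and 8 for Meg3. For Rest 0 of 3 were above it in either clone. With the median of the probe sets in place of their mean the counts were again 9 and 8, but Rest was on in both clones, Pdgfra was on in the vector clone alone, and Aldh1a3 was on in neither, so the calls of these 3 dim genes depend on how probe sets are summarised. The limit is lenient, since 68.6% of all genes passed it for vector and 66.9% for Meg3. By the 99th percentile, which 47.9% and 45.8% of all genes passed, Oat, Maf, Acot7 and Cat were on in both clones, and Lmo4 was on in the Meg3 clone alone, by a margin of under 0.1. In a second yardstick, 35 markers of fibroblasts, endothelium, macrophages, lymphocytes and acinar cells had a median of 5.32 and a 90th percentile of 6.48 in the vector clone, and of 5.38 and 6.45 in the Meg3 clone. Oat, Maf, Acot7, Cat and Lmo4 lay above that 90th percentile in both clones, and Cxcl12, Igfbp4, Aldh1a3, Rest and Pdgfra lay below it. Only 2 members, Oat and Maf, lay above the highest marker, the macrophage gene Cd68, at 8.62 for vector and 8.33 for Meg3. Of the 35 markers themselves, 13 for vector and 10 for Meg3 passed the 95th percentile of the silent set, and 3 and 2 passed the 99th. This yardstick is thus rough too.

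**Figure D1:**
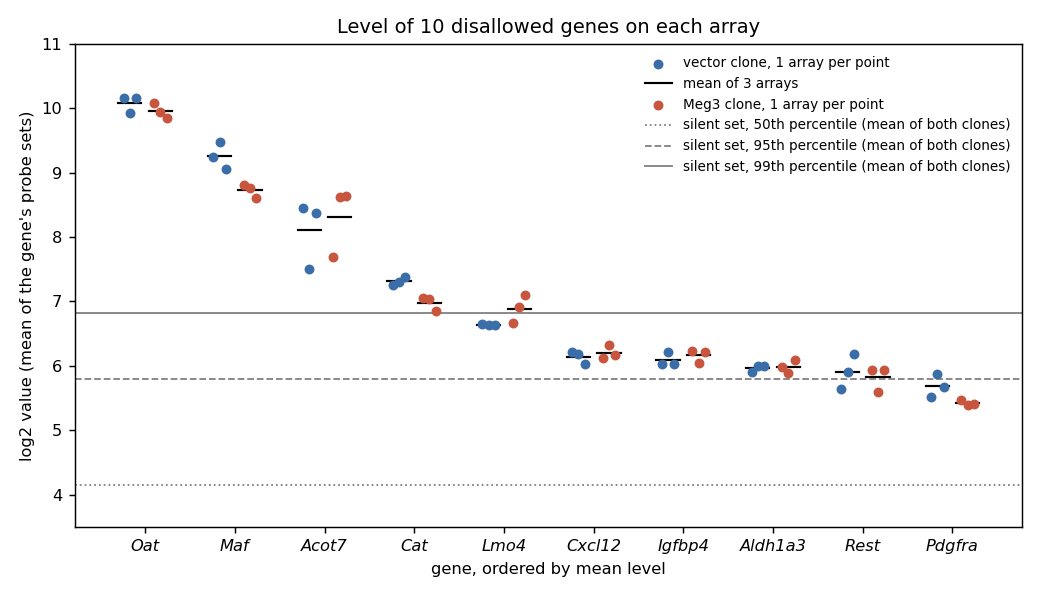
Log2 value (vertical axis) of each of the 10 genes (horizontal axis, ordered by mean level) on the 3 vector and 3 Meg3 arrays, with the mean of each group as a bar and percentiles of the silent set as horizontal lines. Each line is drawn at the mean of both clones' limits. Oat, Maf, Acot7 and, narrowly, Cat stand above the 99th percentile line on every array, whereas Cxcl12, Igfbp4, Aldh1a3, Rest and Pdgfra lie below it on every array.

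In order of mean level the genes ran Oat (10.02), Maf (8.99), Acot7 (8.21), Cat (7.15), Lmo4 (6.77), Cxcl12 (6.17), Igfbp4 (6.12), Aldh1a3 (5.97), Rest (5.87) and Pdgfra (5.56), as means of log2 values over the 6 arrays. The 5 dimmest formed a run in which each gene's array values overlapped those of its neighbour. Lmo4 and Cat overlapped too, as did Acot7 and Maf. Gaps without overlap separated Oat from Maf, Acot7 from Cat, and Lmo4 from Cxcl12. This order covers the spread between arrays only and not probe affinity, which the wide range among probe sets of single genes shows, from 3.21 to 8.88 for Cxcl12.

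**Figure D2:**
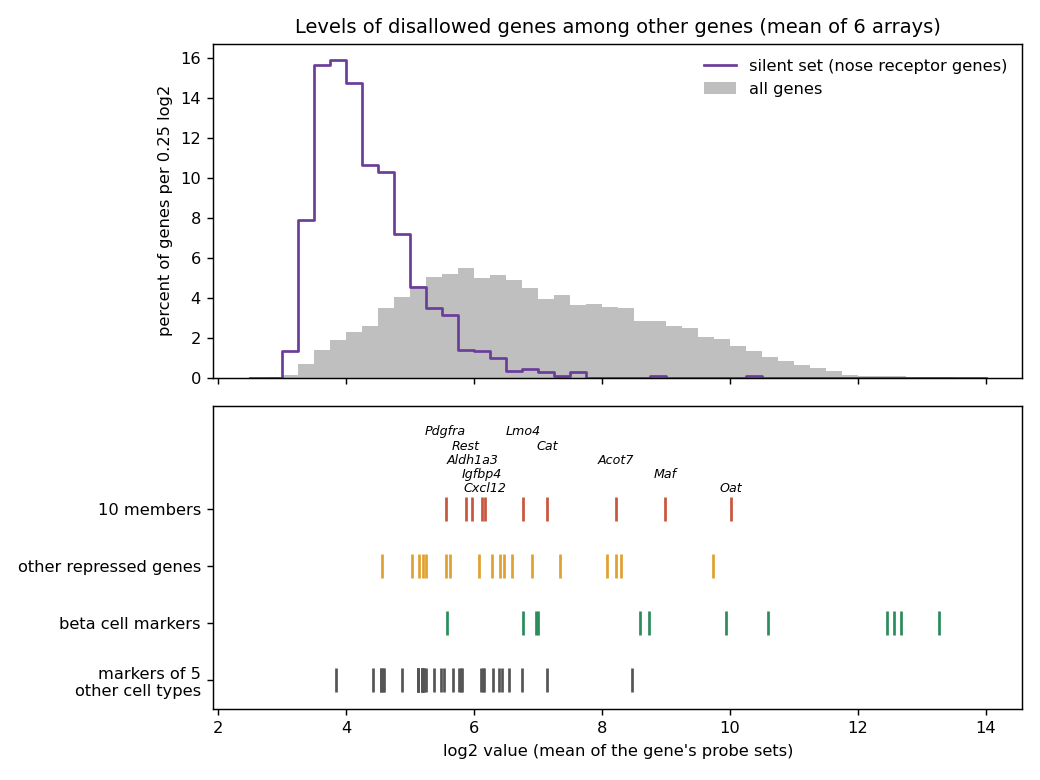
Upper panel: percent of all genes (grey bars) and of the silent set (line) in each interval of mean log2 value over 6 arrays. Lower panel: the same level for the 10 members, 18 other repressed genes, 12 beta cell markers and 35 markers of 5 other cell types; the 5 members of lowest mean lie between 5.56 and 6.17, among markers of other cell types, and Oat lies at 10.02.

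Between the clones, none of the 10 genes passed the test (limma, adjusted p under 0.05), where 0.666% of all genes did. At an unadjusted p under 0.05 there were 2 members, Maf and Cat, both lower in the Meg3 clone, against 6.96% of all genes, 4.28% lower and 2.68% higher. The 3 arrays of each clone did not overlap for 4 of the 10, with Maf, Cat and Pdgfra lower and Lmo4 higher in the Meg3 clone, against 6.39% of all genes lower and 6.41% higher. For Pdgfra this rested on a single probe set, described below. The median log2 difference was -0.04 over the members and 0.01 over all genes. Intervals limit what can have been missed in the means of all probe sets of a gene. The 95% intervals of all 10 such differences lay within 1 on the log2 scale in either direction, and 8 of the 10 estimates were under 0.3 in size. These means include probe sets in the silent range, and intervals of single probe sets reached further, as for the brighter of Maf (-1.52 to -0.31). A p-value above the threshold does not show that the clones were alike in these genes. In RNA from whole cultures, fewer cells expressing a gene and less RNA per cell cannot be told apart. Weighting the arrays by their estimated quality, one of the alternative fits, called Maf (-0.39; limma adjusted p = 0.0137) and Cat (-0.43; limma adjusted p = 0.00512) lower and Lmo4 (0.34; limma adjusted p = 0.0203) higher. That fit called 13.1% of all genes, 7.93% lower and 5.21% higher, and its weights had not converged.

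**Figure D3:**
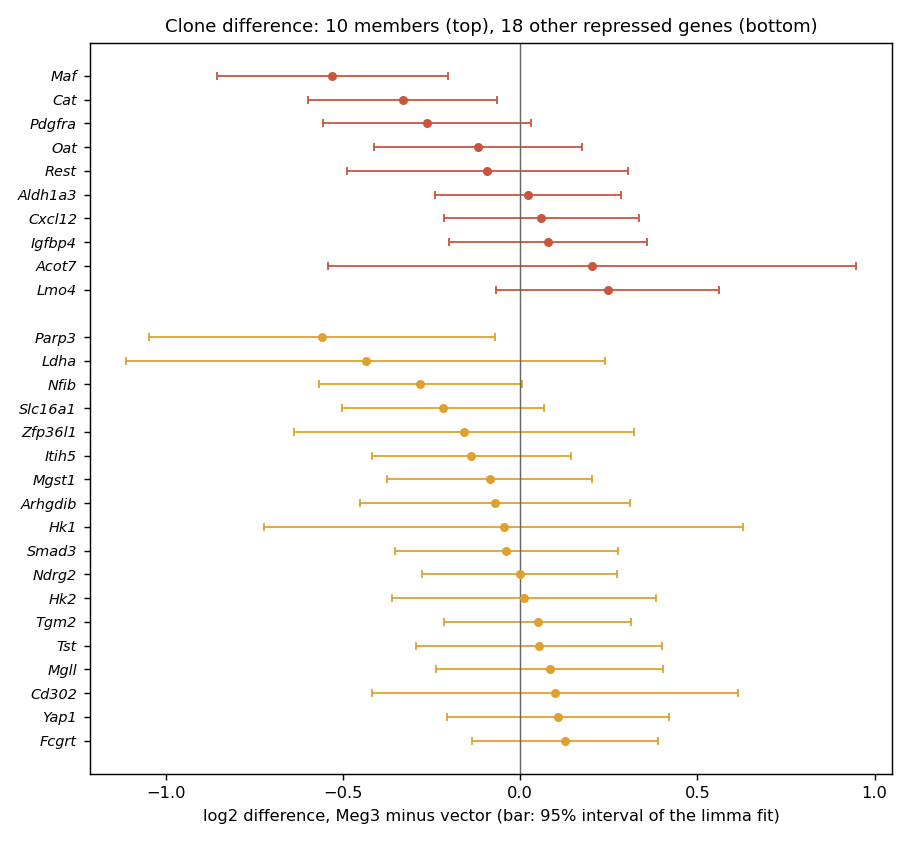
Log2 difference, Meg3 minus vector (horizontal axis), with its 95% interval from the limma fit for the 10 members (upper group) and 18 other repressed genes (lower group). Among the members the intervals of Maf and Cat leave out 0, and that of Acot7 is the widest, from -0.54 to 0.95.

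Among the transcriptional regulators, Maf was bright and had the largest difference. Maf encodes c-MAF, a large MAF factor of alpha cells, lens and lymphocytes and a relative of the beta cell factor MAFA. Its log2 values were 9.25, 9.47 and 9.05 on vector replicates 1 to 3 and 8.81, 8.77 and 8.60 on Meg3 replicates 1 to 3. Every Meg3 culture was below every vector culture. The difference was -0.53 (SE 0.14, 95% interval -0.86 to -0.20; limma unadjusted p = 0.00548, adjusted p = 0.243), or 1.44-fold, and an exact permutation test gave a p of 0.1, below which 6 arrays cannot go. Maf has only 2 probe sets, and they differed by unlike amounts: the brighter by -0.92 (SE 0.25) and the dimmer by -0.14 (SE 0.18). The brighter read 10.13, 10.65 and 9.94 for vector and 9.51, 9.35 and 9.11 for Meg3, without overlap, while the dimmer overlapped. Without vector replicate 2 and Meg3 replicate 1 the difference was -0.46 and Maf was called (limma adjusted p = 0.0410), in a setting that called 5.44% of all genes, 4.01% lower and 1.43% higher.

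Other large and small MAF factors gave no call among 5 measured genes (median difference 0.13). The brightest were Mafg, a small MAF partner, at -0.13 (SE 0.11), and Maff at 0.23 (SE 0.15). Mafa, the insulin gene activator of mature beta cells, chosen after its value was seen, read 7.09 ± 0.08 for vector and 6.86 ± 0.09 for Meg3, a difference of -0.24 (SE 0.12; limma adjusted p = 0.802).

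Lmo4, a LIM-only adaptor that bridges LIM domain transcription complexes, was above the 95th percentile of the silent set, near its 99th percentile, and higher in the Meg3 clone without passing the test. Its values were 6.65, 6.64 and 6.64 for vector and 6.66, 6.91 and 7.09 for Meg3. The groups did not overlap, but Meg3 replicate 1 stood only marginally above the vector cultures. The difference was 0.25 (SE 0.14; limma adjusted p = 0.908), and it was 0.14 without Meg3 replicate 3 and 0.36 without Meg3 replicate 1. Its 8 probe sets fell into kinds: the 4 above the probe sets' silent limit of 6.31 all had positive differences, from 0.41 to 0.70, and of the 4 below it 3 had negative ones. With the 4 bright probe sets alone, an alternative chosen after seeing the data, the difference was 0.57 (SE 0.19; limma adjusted p = 0.436), where 0.72% of all genes were called, 0.226% higher and 0.494% lower.

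Among the other LIM-only factors and their partners 0 of 9 genes were called by limma, with a median of 0.12. At an unadjusted p under 0.05, 2.68% of all genes were higher and 4.28% lower, and of these 9, 1 was higher and 1 lower. Over all 20416 genes 10537 differences were positive, and in this list 8 of 9 were. The brightest were the islet factor gene Isl1 (0.12, SE 0.22) and its cofactor Ldb1 (0.12, SE 0.23). Lmo1, a close relative of Lmo4 and chosen after its value was seen, had the lowest adjusted p of any gene in the lists described: it read 7.56 ± 0.10 for vector and 6.90 ± 0.10 for Meg3, differing by -0.66 (SE 0.12; limma adjusted p = 0.0617), opposite in sign to Lmo4. Lmo2, chosen likewise, differed by 0.36 (SE 0.13; limma adjusted p = 0.570).

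Rest was at the silent limit in both clones. It encodes the repressor REST, which shuts off neuronal genes in most tissues and whose absence lets beta cells express them. Its values were 5.63, 5.91 and 6.19 for vector and 5.93, 5.60 and 5.93 for Meg3, fully overlapping. The difference was -0.09 (SE 0.17, 95% interval -0.49 to 0.30). All 3 of its probe sets, at levels of 5.56 to 6.15, lay below the probe sets' silent limit in both clones, the only member for which none reached it. Its position just above the gene limit in the vector clone depended on vector replicate 3, without which it was inside the silent range, and without Meg3 replicate 2 it counted as on in the Meg3 clone. By the median of its probe sets it counted as on in both clones.

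The 95th percentile of the silent set was passed by 68.6% (vector) and 66.9% (Meg3) of all genes. Of 22 measured neuronal and granule genes that REST represses elsewhere, 21 were above it in each clone. The median of the 22 was 9.29 in the vector clone, where that of all genes was 6.67. This list holds granule genes and was chosen with earlier results of these data known. Whether its level goes with that of Rest was not tested. The brightest were the granule protein genes Scg3 (12.65 and 12.54 in the vector and Meg3 clones) and Chga (12.67 and 12.48). None of the 22 was called by limma, and 0 had an unadjusted p under 0.05. Their median difference was -0.11. Negative differences numbered 17 of the 22, and 9879 of 20416 over all genes. The 11 measured REST corepressor genes were all above the 99th percentile in both clones, where 47.9% (vector) and 45.8% (Meg3) of all genes were. By limma none of the 11 was called, and 0 had an unadjusted p under 0.05. The brightest of the 11 were the histone deacetylase genes Hdac2 (0.04, SE 0.12) and Hdac1 (-0.02, SE 0.18).

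Among the enzymes, Oat was the brightest member and differed little. It encodes ornithine aminotransferase, a mitochondrial enzyme linking ornithine to glutamate and proline. Its log2 values were 10.16, 9.92 and 10.17 for vector and 10.09, 9.95 and 9.85 for Meg3, which overlapped. All 12 of its probe sets were above the silent limit in both clones. The difference was -0.12 (SE 0.13, 95% interval -0.41 to 0.17), and in the vector clone the gene stood at percentile 93.8 of all genes.

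The 13 measured genes of ornithine, proline and polyamine metabolism had a median difference of 0.06 and 0 calls by limma. At an unadjusted p under 0.05, 2.68% of all genes were higher and 4.28% lower, and of these 13, 1 was higher and 2 lower. Odc1, ornithine decarboxylase and the brightest of them, read 11.77 ± 0.07 for vector and 11.39 ± 0.07 for Meg3, a difference of -0.38 (SE 0.11; limma adjusted p = 0.325). Azin1, which encodes an inhibitor of the ODC antizyme, differed by -0.16 (SE 0.24).

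Acot7, which encodes a cytosolic acyl-CoA thioesterase best known in brain, was on and varied more between arrays of a clone than between clones. It read 8.45, 7.51 and 8.38 for vector and 7.68, 8.63 and 8.63 for Meg3. The low array in each group was the one that stood apart from the rest, lower than the mean of the others by 0.90 for vector replicate 2 and by 0.94 for Meg3 replicate 1. Only 0.519% of all genes read at least that low on both of these arrays. The difference was 0.20 (SE 0.32; limma adjusted p = 1.00), and without those 2 arrays it was 0.22 (limma adjusted p = 0.257). Without vector replicate 2 alone it was -0.10, so Acot7 has no settled direction here. What set those arrays apart was not tested.

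Other acyl-CoA thioesterases gave 0 calls by limma among 12 measured genes, with a median of 0.00. At an unadjusted p under 0.05, 4.28% of all genes and 1 of these 12 were lower. Acot13 and Acot9, the brightest, differed by 0.01 (SE 0.14) and -0.20 (SE 0.16).

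Cat encodes catalase, which breaks down hydrogen peroxide and is known to be scarce in beta cells. It read 7.26, 7.30 and 7.38 for vector and 7.05, 7.03 and 6.86 for Meg3. No Meg3 culture reached the lowest vector culture. The difference was -0.33 (SE 0.12, 95% interval -0.60 to -0.06), or 1.26-fold, and did not pass the test (limma unadjusted p = 0.0209, adjusted p = 0.499). Of its 16 probe sets 13 had negative differences, including 10 of the 11 above the silent limit, and 3 of these did not overlap between the clones, where 11.6% of all probe sets did not overlap in either direction. The lowest was -1.11 (SE 0.22; limma adjusted p = 0.360 over all probe sets), with values of 6.94 to 7.38 for vector against 5.81 to 6.18 for Meg3. The 5 probe sets with the highest levels, from 8.60 to 9.61, differed by less, between -0.40 and 0.04.

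In the wider peroxide and antioxidant defence list 0 of 22 genes were called by limma, with a median of -0.02. At an unadjusted p under 0.05, 4.28% of all genes and 3 of these 22 were lower. Sod1 (0.02, SE 0.12) and Prdx2 (0.06, SE 0.22), a superoxide dismutase and a peroxiredoxin gene, were the brightest. Of the list, 18 genes were above the 99th percentile of the silent set in each clone, as was Cat. Over all genes 47.9% (vector) and 45.8% (Meg3) were above it.

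Aldh1a3, a retinaldehyde dehydrogenase that makes retinoic acid, stayed near the silent limit in both clones. Its 6 array values ran from 5.89 to 6.09, and the clones overlapped with a difference of 0.02 (SE 0.11, 95% interval -0.24 to 0.28). The mean hides a wide spread among its 15 probe sets, from 3.73 to 8.69: 6 were above the probe sets' silent limit, 4 of them at 7.67 or more, and 9 were not. With the median of its probe sets in place of the mean it was inside the silent range in both clones. Tests of single probe sets called none of the 15, and their differences ran from -0.91 to 0.60.

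Of 18 measured genes of retinoic acid metabolism and response 0 were called by limma, with a median of 0.00. At an unadjusted p under 0.05, 4.28% of all genes and 1 of these 18 were lower. The brightest were Rdh10, which makes retinaldehyde from retinol (0.18, SE 0.13), and the receptor gene Rarg (-0.09, SE 0.11). Among 12 genes of beta cell progenitors and dedifferentiation 0 were called (limma; unadjusted p under 0.05 in 1 lower; median 0.00), the brightest being the tetraspanin gene Cd81 (-0.19, SE 0.25) and Myc (0.11, SE 0.20). The 95th percentile of the silent set was passed by 68.6% (vector) and 66.9% (Meg3) of all genes, and the 99th by 47.9% and 45.8%. Of the 12 progenitor and dedifferentiation genes, 10 were above the 95th percentile in each clone. Above the 99th there were 3 for vector and 2 for Meg3. Neurog3, the endocrine progenitor factor, chosen after its value was seen, read 5.61 and 5.62 in the vector and Meg3 clones, below that 95th percentile in both, and is one of the 2 that were not above it.

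Among receptors and secreted proteins, Pdgfra was the dimmest member. It encodes the alpha receptor for platelet-derived growth factor, typical of mesenchymal cells. Its gene values were 5.52, 5.87 and 5.67 for vector and 5.47, 5.40 and 5.41 for Meg3, which did not overlap, with a difference of -0.26 (SE 0.13; limma adjusted p = 0.803). All gene values but that of vector replicate 2 were under the limits of the silent set. The size of the difference moved with the setting, from -0.17 without vector replicate 2 to -0.58 with the median of probe sets, and was -0.14 for the brightest probe set.

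A single Pdgfra probe set out of 26, chosen after its value was seen, stood far from the rest. It read 8.64, 9.28 and 8.72 for vector and 6.23, 4.97 and 6.60 for Meg3. That is a difference of -2.95 (SE 0.44), or 7.73-fold, the 51st lowest of 212097 probe sets, yet not called (limma adjusted p = 0.213 over all probe sets, of which 0.00377% were called). The other 25 probe sets differed by -1.01 to 1.01, and the brightest of them, at 8.39, differed by -0.14 (SE 0.47). Of the 9 above the silent limit by their mean over the 6 arrays, 8 were negative. The gene's lack of overlap between clones rests on this probe set, since the mean of the other 25 overlaps between the clones.

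**Figure D4:**
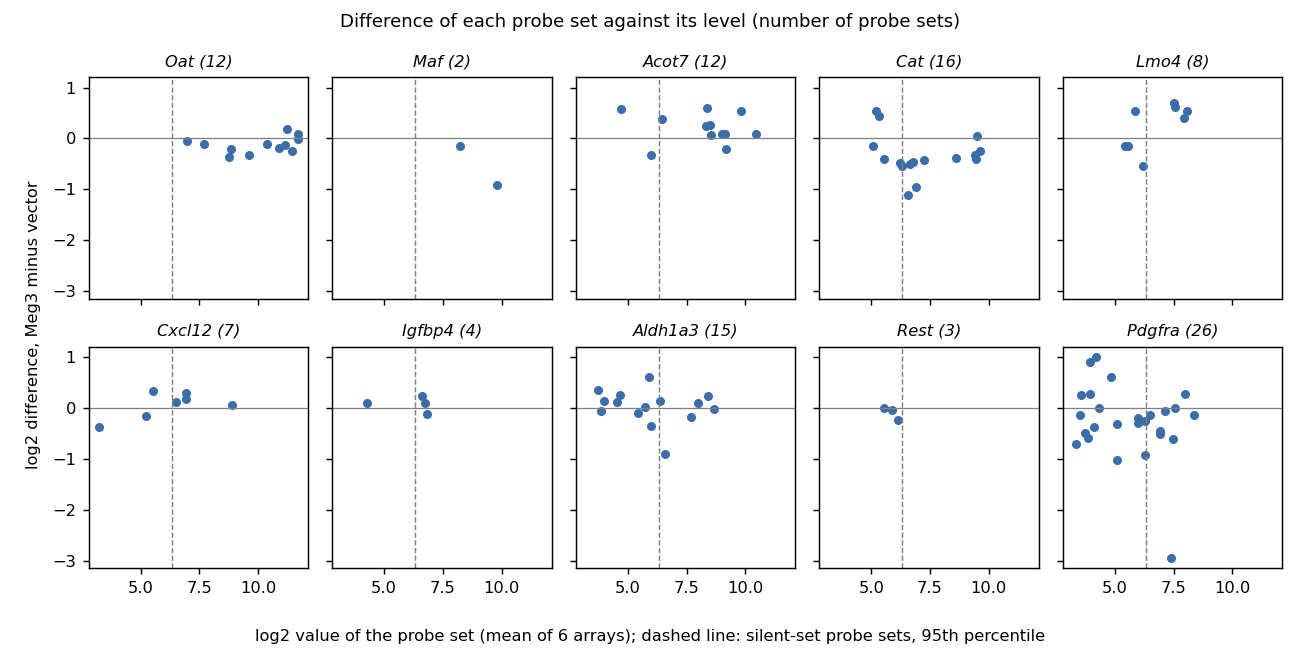
Log2 difference, Meg3 minus vector (vertical axis), of each probe set against its mean log2 value over 6 arrays (horizontal axis), 1 panel per gene with the number of probe sets in its title; the dashed line at 6.31 is the 95th percentile of silent-set probe sets. For Cat most bright probe sets lie below 0, for Lmo4 the bright ones lie above 0, and for Pdgfra 1 probe set lies at -2.95.

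PDGF ligands and the other receptors showed 0 calls among 6 measured genes (limma; 0 at an unadjusted p under 0.05; median 0.05). The ligand gene Pdgfa was the brightest at 7.63 and 7.62 in the vector and Meg3 clones, with a difference of 0.00 (SE 0.12), and Pdgfrl, a receptor-like gene, differed by 0.00 (SE 0.18). Of all genes, 68.6% (vector) and 66.9% (Meg3) passed the 95th percentile of the silent set, and 47.9% and 45.8% the 99th. Fibroblast markers, which would accompany Pdgfra in mesenchymal cells, had 5 of 11 above the 95th percentile and 1 above the 99th in each clone. Their list means were 5.58 to 5.75 on vector arrays and 5.65 to 5.74 on Meg3 arrays. The brightest of them were the collagen genes Col1a1, at 7.16 and 7.12 in the vector and Meg3 clones, and Col1a2, at 6.49 and 6.61, both above Pdgfra, and the dimmest was Lum, a matrix proteoglycan gene chosen after its value was seen, at 3.81 and 3.86.

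Cxcl12, a chemokine that attracts CXCR4-bearing cells, ran from 6.03 to 6.32 over the 6 arrays. The clones overlapped, and the difference was 0.06 (SE 0.12, 95% interval -0.22 to 0.33). Of its 7 probe sets 4 were above the silent limit in both clones, 1 of them at 8.88, and all 4 differed by small positive amounts, 0.05 to 0.29. Related chemokine genes and CXCL12 receptors had 0 of 6 called by limma. At an unadjusted p under 0.05, 4.28% of all genes and 1 of these 6 were lower. The interferon-induced chemokine gene Cxcl10, the brightest, read 9.29 ± 0.99 for vector and 7.72 ± 0.21 for Meg3, a difference of -1.57 (SE 0.42; limma adjusted p = 0.254), and Cxcl1 differed by 0.15 (SE 0.22). The receptor genes Cxcr4 and Ackr3, chosen after their values were seen, read 6.49 and 5.11 for vector and 6.35 and 5.10 for Meg3.

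Igfbp4, a secreted binding protein that restrains insulin-like growth factors, ran from 6.02 to 6.23 over the 6 arrays. The difference was 0.08 (SE 0.12, 95% interval -0.20 to 0.36), with overlap. Only 4 probe sets carry it, 3 of them at 6.63 to 6.82 and above the silent limit. In the IGF axis 0 of 14 genes were called by limma, with a median of 0.06. At an unadjusted p under 0.05, 2.68% of all genes and 2 of these 14 were higher. The brightest were the growth factor gene Igf2 (0.07, SE 0.18) and Igfbp7 (0.30, SE 0.15), the latter at 9.98 and 10.28 in the vector and Meg3 clones.

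A wider list of 18 other genes described as repressed in beta cells, compiled from general knowledge, is set beside the members. Of the 18, 11 were above the 95th percentile and 6 above the 99th in each clone. The 10 members had 9 (vector) and 8 (Meg3) above the 95th and 4 and 5 above the 99th. Over all genes the 95th was passed by 68.6% (vector) and 66.9% (Meg3), and the 99th by 47.9% and 45.8%. None of the 18 was called by limma, and their median difference was -0.04. At an unadjusted p under 0.05, 4.28% of all genes and 1 of these 18 were lower. Ldha, the muscle-type lactate dehydrogenase and the brightest of them, read 9.96 ± 0.64 for vector and 9.52 ± 0.23 for Meg3, a difference of -0.44 (SE 0.29). Hk1, a low-Km hexokinase, differed by -0.05 (SE 0.29). Slc16a1, the monocarboxylate carrier MCT1, chosen after its value was seen, read 7.46 and 7.24 and differed by -0.22 (SE 0.12; limma adjusted p = 0.924). Other genes that track the members over the 6 arrays were looked up for the 2 members with the lowest p, among 10208 genes above the median level. For Maf they were 2200002D01Rik (Pearson r = 0.993), Zfp820 (0.988) and 2610524H06Rik (0.987), and for Cat they were Cnpy4 (0.996), Dusp18 (0.995) and Dapp1 (0.994). These 6 arrays are only 3 cultures each of 2 clones, so such correlations describe the arrays and are not tested.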

How the data were processed

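Expression was measured on 6 Affymetrix arrays, with 3 vector and 3 Meg3 cultures labelled from 6 µg of total RNA each. Deposited values are RMA log2 signals of probe sets as the authors made them; the submitters' processing notes name RMA and Partek, with neither version nor genome build. The array annotation gave 1 symbol to 212097 of 241419 probe sets, several to 4475 and no symbol to 24847, and the latter kinds were left out. Gene values are means of probe sets, for 20416 genes, and list symbols were matched through RefSeq GRCm38.p6 names, 2742 array names through a synonym and 53 unmatched. Genes absent from a count of measured genes were not analysed here. The clones' comparison was a linear model per gene in limma (version 3.58.1, under R 4.3.3) with empirical Bayes moderation, two-sided, without covariates or a filter on dim genes, Benjamini-Hochberg adjusted over all genes or, for probe sets, over all probe sets with 1 symbol; errors of differences are moderated standard errors. The steps were tested on simulated data. Precision is limited by the number of arrays. RMA values of dim genes lie close to background, so differences of dim genes can be understated.

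The members and lists were chosen with earlier results of these data known. Named genes are the 10 members, Meg3 and, from each list, the called genes, or the 2 brightest where none was called; for the 2 members with the lowest p, the 3 most correlated genes are named. Ucn3, Mafa, Lmo1, Lmo2, Neurog3, Lum, Cxcr4, Ackr3 and Slc16a1 fall outside this rule and were chosen after their values were seen. Alternatives tried were a replicate block, centring, a repeated quantile normalization, leaving out the dimmest 30% of genes, the median or the brightest of the probe sets, trend and robust estimation, array weights, leaving out arrays, other silent limits and, chosen after seeing the data, bright probe sets alone.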

Additional observations from a re-analysis of the deposited data

How the results depend on the processing

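The members were called in 0 cases under 14 of 16 alternatives. Array weights called 3 members, Maf, Lmo4 and Cat (limma adjusted p = 0.0137, 0.0203 and 0.00512), but also 2682 genes (13.1%), and their estimation stopped before convergence. Leaving out vector replicate 2 and Meg3 replicate 1 called 1 member, Maf, and 1111 genes. Without those arrays Cat differed by -0.37 (limma adjusted p = 0.0785) and Lmo4 by 0.36 (limma adjusted p = 0.0808). Genes called over the whole table, 136 in the fit reported, numbered 30 with a replicate block, 58 with the median of probe sets, 40 with the brightest probe set, and 22 (without Meg3 replicate 3) to 349 (without vector replicate 2) with 1 array left out; members called stayed at 0 there. The replicate block called 0 members. Deviations of same-numbered cultures correlated at -0.61, -0.63 and 0.28, and those of differently numbered ones at -0.54 to 0.65. The highest was that of vector replicate 2 with Meg3 replicate 1, the arrays that stood apart. Such correlations follow those arrays and cannot show whether the numbers pair cultures.

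Of the recomputed member differences, 145 kept their direction and their side of the threshold, 4 became called and 9 changed sign, all of the latter small. With the brightest probe set Aldh1a3 was -0.029, Oat 0.082 and Igfbp4 -0.13, and with bright probe sets alone Aldh1a3 was -0.11. With 1 array left out, Acot7 ranged from -0.10 (without vector replicate 2) to 0.52, Rest from -0.23 to 0.047 and Aldh1a3 from -0.028 to 0.068; the cause was not tested. Maf, Cat, Pdgfra, Lmo4 and Cxcl12 kept their sign in every alternative run. Maf lay between -0.92 and -0.39, Cat between -0.66 and -0.24, Pdgfra between -0.58 and -0.135, and Lmo4 between 0.14 and 0.57. Cxcl12 lay between 0.0012 and 0.17, too small at its lowest to give a direction. Pdgfra had no value with dim genes left out, nor Rest with bright probe sets alone.

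Members above the silent limit numbered 9 (vector) and 8 (Meg3), and 4 and 5 with either the 99th percentile or the median of all genes as the limit; with 1 array left out they were 8 to 9 in the vector clone and 8 to 9 in the Meg3 clone. Dim members have signal close to background, which limits what a difference in them can show. No group had enough arrays for a test of outlying samples.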
